A study of Mus musculus with 24 samples.

Results

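T cell costimulation in mouse brain tumours was followed through 10 genes: the B7 ligand genes Cd80, Cd86 and Icosl, the tumour necrosis factor (TNF) ligand genes Cd70, Tnfsf4, Tnfsf9 and Tnfsf18, and the TNF receptor genes Tnfrsf4, Tnfrsf9 and Tnfrsf18. They were chosen by name, out of 49315 genes in the count tables. RNA-seq of polyadenylated RNA was available for 24 tumours in 8 groups of 3. In all groups, 200000 CT-vIII cells, the CT-2A mouse glioma line transduced with mouse EGFR variant III and firefly luciferase, had been injected into the right brain hemisphere. An osmotic pump then infused the brain at 0.5 µl per hour for 72 h, starting on day 6 and ending on day 9 of tumour growth.

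The groups received D2C7-IT + αCD40, D2C7-IT alone, αCD40 alone, or vehicle. D2C7-IT is an immunotoxin that carries a bacterial toxin to cells with EGFR or EGFR variant III on their surface, given at 0.2 µg. αCD40 is an antibody against the receptor CD40, clone FGK4.5, given at 10 to 300 µg, and the dose of each tumour was not stated. Vehicle was saline with 2% albumin and 100 µg of rat IgG2a, a control antibody. Tumours were taken 3 days after the end of infusion, called day 3, or at its end, called day 0. The comparison asks how these genes differed between treatments and days in whole tumour tissue of 1 cell line model. Strain, sex and age of the mice were not stated.

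A T cell is activated by its antigen receptor together with a costimulatory signal from the cell that presents the antigen. CD80 and CD86, on dendritic cells, macrophages and B cells, bind CD28 on the T cell and also the inhibitory receptor CTLA-4, and ICOSL binds ICOS. The TNF ligands pair with receptors on T cells: CD70 with CD27, OX40L (Tnfsf4) with OX40 (Tnfrsf4), 4-1BBL (Tnfsf9) with 4-1BB (Tnfrsf9), and GITRL (Tnfsf18) with GITR (Tnfrsf18). Engagement of CD40 on an antigen-presenting cell is known to raise its costimulatory ligands, a process called licensing. The receptors, and CD40 itself, signal through TRAF adaptor proteins to the transcription factor NF-κB.

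Several of the genes are neighbours in the mouse genome (GRCm38, GENCODE M21). Cd80 (16:38455561-38496335, plus strand) and Cd86 (16:36603869-36666081, minus strand) share a chromosome. Tnfsf9 (17:57105325-57107757, plus strand) lies beside Cd70 (17:57145997-57149777, minus strand). Tnfsf4 (1:161395409-161418410) and Tnfsf18 (1:161494655-161505290) are both on the plus strand, and so are Tnfrsf4 (4:156013843-156016612), Tnfrsf18 (4:156026164-156028895) and Tnfrsf9 (4:150914562-150946102). Icosl is at 10:78069302-78083913 on the plus strand. Tnfsf9 shared 192 exon bases with Gm11110, a long noncoding RNA gene on the opposite strand with 949 counts over all libraries. Tnfrsf18 shared 414 of its 1524 exon bases with the antisense gene Gm16008, which held 5615 counts. The library kit does not mark strand, so reads from those stretches cannot be told apart.

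Promoter sequence from RefSeq (GRCm38.p6) was found for 6 of the 10 genes, in 7 windows of 250 bases before a start site. Windows were searched on both strands for the NF-κB consensus, given here by its name, and for the AP-1 motif TGANTCA. Among 32851 windows of the same length, 7.25% held the first and 6.75% the second. Windows of 3 genes held a match, and capitals mark those in the stretches printed. The Cd80 window is shown whole and held an AP-1 match that begins 42 bases before the start site. The Icosl stretch ends where a GENCODE exon begins and held an NF-κB match on the minus strand, 111 bases before the start site. The Tnfrsf9 stretch, before the second of its start sites, is limited to 30 bases because it lies in a GENCODE exon; its capitals cover 2 overlapping NF-κB matches. An AP-1 match in the same window, TGAGTCA, begins 15 bases before that start site and lies outside the printed stretch. A match describes these letters and is not a measured binding site.
Cd80, 16:38458683-38458932, plus strand: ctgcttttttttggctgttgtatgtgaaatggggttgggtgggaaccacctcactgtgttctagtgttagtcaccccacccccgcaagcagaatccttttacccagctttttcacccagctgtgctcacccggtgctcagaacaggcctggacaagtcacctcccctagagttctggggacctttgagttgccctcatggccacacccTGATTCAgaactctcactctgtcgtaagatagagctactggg
Icosl, 10:78069118-78069301, plus strand: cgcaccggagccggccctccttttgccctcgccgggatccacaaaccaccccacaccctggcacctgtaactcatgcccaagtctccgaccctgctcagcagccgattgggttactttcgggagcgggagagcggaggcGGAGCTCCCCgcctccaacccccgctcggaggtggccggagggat
Tnfrsf9, 4:150927953-150927982, plus strand: gctGGGGATTTCCCaggaggccctgctcag

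Libraries held 24697576 to 48119840 counts. All 10 genes passed the filter on low counts and were tested among 22280 genes, and levels are in CPM, counts scaled to a common library size with TMM factors. A library set stood apart from the rest, namely αCD40 day 3 replicate 1 and vehicle day 3 replicates 2 and 3. Egfr, whose variant the implanted cells carry, was at 283 to 343 CPM in those 3 libraries and at 13.1 to 50.8 CPM in the other 21. The summed level of 14 cell cycle genes was 1621 to 2030.3 CPM in the 3 and 57.7 to 256 CPM in the 21, while that of 10 neuron genes was 1837 to 3156 CPM in the 3 and 5007 to 9074 CPM in the 21. The tissue was labelled brain tumour, and neuron markers were abundant in every library. Immune markers were higher in the 3 libraries as well: Ptprc, the leukocyte antigen CD45, was at 109 to 266 CPM against 7.32 to 59.6 CPM, and 9 monocyte and macrophage genes summed to 931 to 2113 CPM against 56.9 to 542 CPM. Of the T cell genes Cd3d, Cd3e and Cd3g, a subset taken after values were seen, the sum was 13.3 to 27.7 CPM against 0.705 to 13.8 CPM. The whole list of 15 T cell genes went the other way, at 304 to 409 CPM in the 3 and 460 to 737 CPM in the 21. Most of that sum was Thy1, which neurons express as well, at 184 to 279 CPM in the 3 and 439 to 721 CPM in the 21, and without Thy1 the list was at 82.4 to 156 CPM against 15.7 to 96.0 CPM. Results on day 3 are therefore given with and without these libraries, and in whole tissue fewer cells of a type and less RNA per cell cannot be told apart.

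Per kilobase of exon, the mean level over the 24 tumours was highest for Tnfrsf18 (4.04 CPM per kb), Icosl (3.72) and Cd86 (2.86). Tnfrsf4 (1.73), Tnfsf9 (1.71), Tnfrsf9 (1.05) and Cd80 (0.536) followed. Cd70 (0.280), Tnfsf18 (0.171) and Tnfsf4 (0.0729 CPM per kb) were the lowest, and each of these 3 had at least 1 tumour with no count. How reads from the exon bases that Tnfrsf18 shares with Gm16008 were counted was not stated, which limits its place in this order.

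At the end of infusion, several ligand genes had higher levels in tumours given D2C7-IT than in vehicle tumours, although edgeR called none of them. Icosl, the ligand of ICOS, was at 9.88, 36.7 and 19.6 CPM in D2C7-IT + αCD40 tumours and at 21.8, 33.0 and 35.0 CPM in D2C7-IT tumours. It was at 6.73, 9.56 and 18.2 CPM in αCD40 tumours and at 10.5, 7.59 and 5.29 CPM in vehicle tumours. All 3 D2C7-IT tumours were above all 3 vehicle tumours, while 1 combination tumour was at the vehicle level. Against vehicle, the log2 fold change of Icosl was 1.94 ± 0.46 (SE) for D2C7-IT, with an unadjusted p of 0.000458 and an adjusted p of 0.18 (edgeR quasi-likelihood test, Benjamini-Hochberg), and 1.49 ± 0.45 for the combination, with an unadjusted p of 0.00369 and an adjusted p of 1.

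Cd80, a B7 ligand that rises on activated antigen-presenting cells, was at 0.733, 3.47 and 1.19 CPM in D2C7-IT + αCD40 tumours and at 1.95, 2.93 and 2.97 CPM in D2C7-IT tumours on day 0. It was at 0.747, 0.703 and 2.47 CPM in αCD40 tumours and at 0.946, 0.488 and 0.397 CPM in vehicle tumours. The D2C7-IT and vehicle tumours did not overlap, and the log2 fold change was 2.07 ± 0.72 (SE; edgeR unadjusted p = 0.0094, adjusted p = 0.70). For the combination the log2 fold change was 1.53 ± 0.71, with an adjusted p of 1. Cd86, the other ligand of CD28, was at 4.72, 9.17 and 7.53 CPM in combination tumours and at 8.60, 9.54 and 9.88 CPM in D2C7-IT tumours. Its level was 4.54, 5.02 and 12.3 CPM in αCD40 tumours and 8.85, 4.56 and 2.78 CPM in vehicle tumours. Each treated group overlapped vehicle in Cd86.

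Tnfsf18, which encodes GITRL, was at 0.0271, 1.24 and 0.0216 CPM in D2C7-IT + αCD40 tumours and at 0.307, 1.89 and 1.13 CPM in D2C7-IT tumours on day 0. It was at 0.0534, 0 and 0.159 CPM in αCD40 tumours, and at 0, 0.0271 and 0 CPM in vehicle tumours, which is 1 count in the 3 vehicle libraries. The D2C7-IT tumours all lay above the αCD40 and vehicle tumours, and 1 combination tumour held most of that group's counts. The D2C7-IT libraries held 139 counts against 1 in vehicle, a ratio of their CPM of 119 with an exact 95% counting interval of 21.0 to 4724. The combination held 45 counts, a ratio of 38.9 (6.64 to 1572). αCD40 libraries held 9 counts, a ratio of 8.12 (1.13 to 356). These intervals cover counting error only. The edgeR unadjusted p was 0.00187 for D2C7-IT (adjusted p = 0.36) and 0.0129 for the combination (adjusted p = 1).

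Tnfsf9, which encodes 4-1BBL, was at 0.488, 1.85 and 1.32 CPM in combination tumours and at 2.48, 3.10 and 2.06 CPM in D2C7-IT tumours on day 0. It was at 0.614, 0.895 and 1.47 CPM in αCD40 tumours and at 1.30, 1.03 and 0.397 CPM in vehicle tumours. D2C7-IT tumours lay above the tumours of the other 3 groups of that day. Cd70, the ligand of CD27, was at 0, 0.549 and 0.368 CPM in combination tumours and at 0.512, 0.520 and 0.313 CPM in D2C7-IT tumours. It was at 0.0534, 0.0320 and 0.204 CPM in αCD40 tumours and at 0.0237, 0.163 and 0.0441 CPM in vehicle tumours. The D2C7-IT tumours again did not overlap vehicle, and the log2 fold change of Cd70 was 2.47 ± 0.94 (SE; edgeR unadjusted p = 0.0169, adjusted p = 0.86). Tnfsf4, which encodes OX40L, was at 0.0814, 0.376 and 0.0433 CPM in combination, 0.0256, 0.125 and 0 CPM in D2C7-IT, 0.0267, 0.0959 and 0.204 CPM in αCD40, and 0.0473, 0 and 0 CPM in vehicle tumours. Its 3 libraries summed to 18 counts in the combination, 7 in D2C7-IT, 13 in αCD40 and 2 in vehicle.

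Of the receptor genes, none had an unadjusted p under 0.05 against vehicle on day 0. Tnfrsf9, the gene of 4-1BB, was at 1.22, 1.53 and 0.973 CPM in combination tumours and at 2.00, 2.83 and 1.81 CPM in D2C7-IT tumours. It was at 0.907, 0.959 and 1.68 CPM in αCD40 tumours and at 1.32, 1.17 and 0.529 CPM in vehicle tumours, all below the lowest D2C7-IT tumour. Tnfrsf4, the gene of OX40, was at 1.00, 2.49 and 1.12 CPM in combination, 1.61, 2.56 and 2.16 CPM in D2C7-IT, 2.03, 1.47 and 1.84 CPM in αCD40, and 1.82, 1.57 and 1.41 CPM in vehicle tumours. Tnfrsf4 overlapped between each pair of these groups. Tnfrsf18, the gene of GITR, was at 6.92, 5.75 and 7.31 CPM in combination, 6.35, 5.67 and 5.88 CPM in D2C7-IT, 5.60, 5.72 and 6.49 CPM in αCD40, and 5.23, 4.34 and 5.73 CPM in vehicle tumours. The combination tumours lay above vehicle in Tnfrsf18 by a narrow margin.

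**Figure D1:**
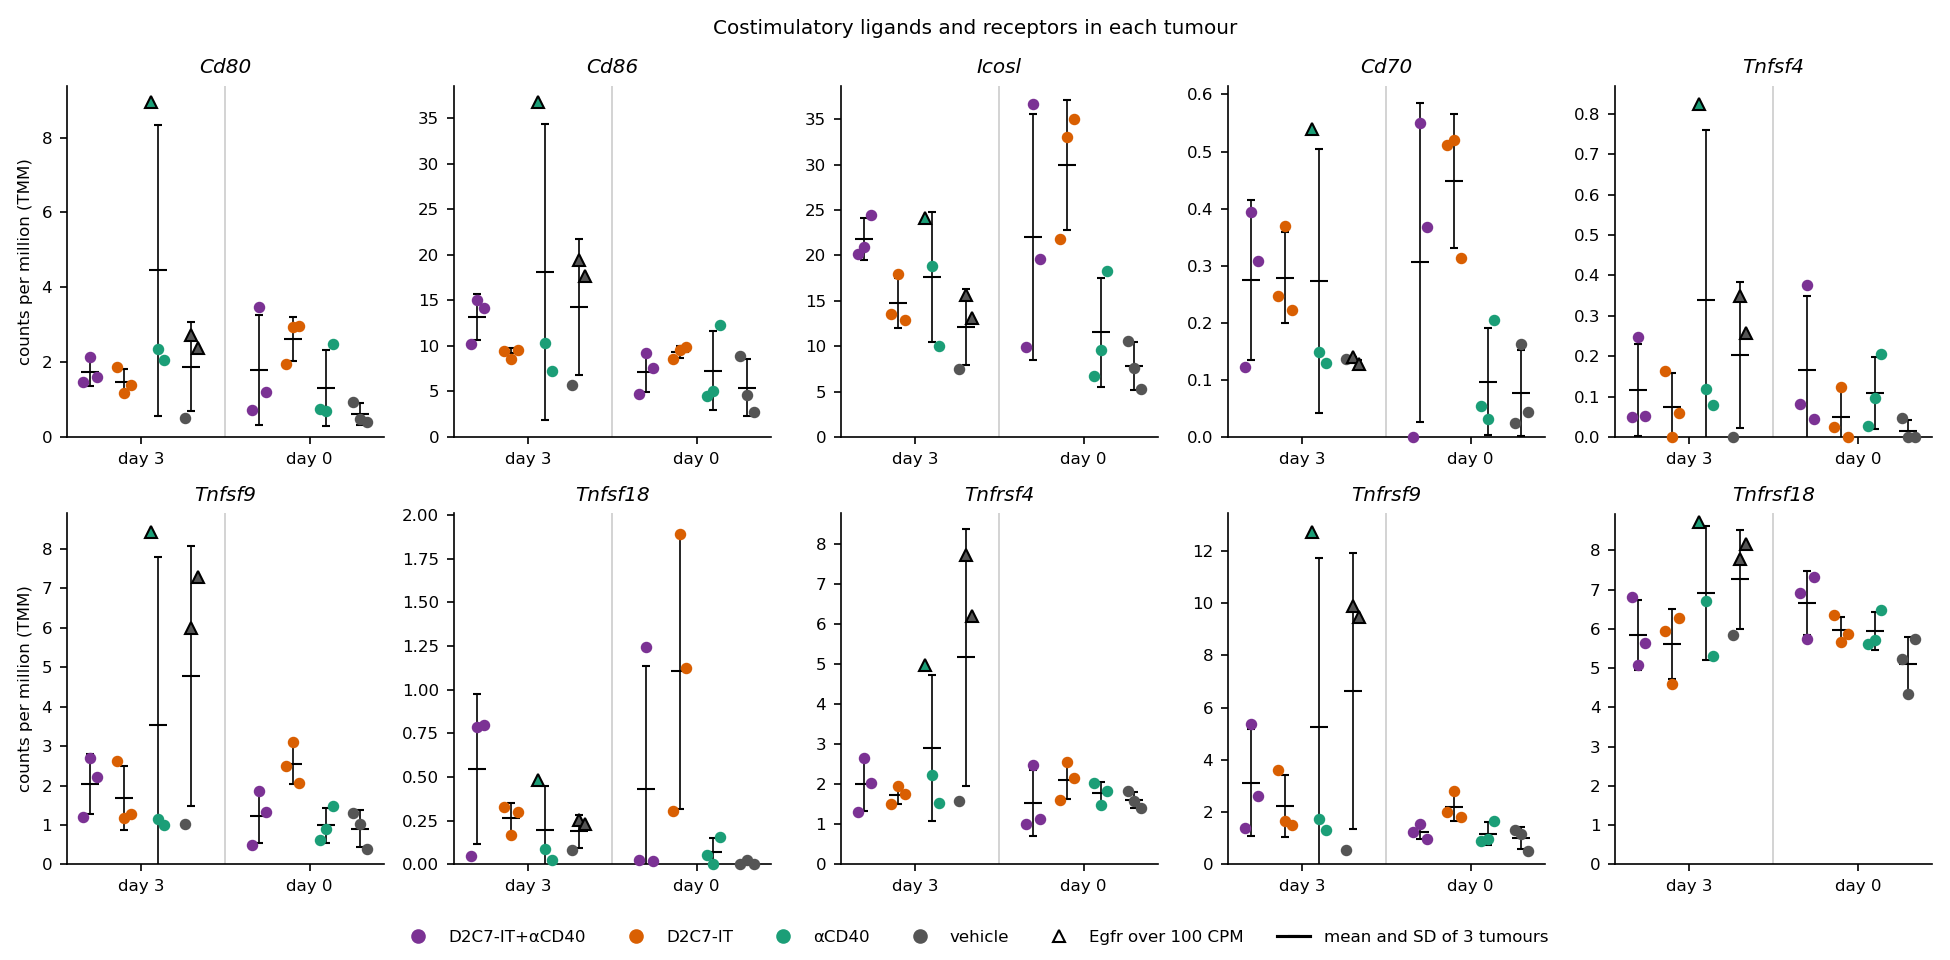
Level of each of the 10 genes in each tumour, in CPM with TMM scaling, by treatment (colour) on day 3 and day 0; black marks give the mean and SD of 3 tumours, and triangles are the 3 libraries with Egfr over 100 CPM. D2C7-IT tumours of day 0 sat above vehicle tumours in Cd80, Icosl, Cd70, Tnfsf9, Tnfsf18 and Tnfrsf9, and on day 3 the triangles sat above the other tumours in Cd86, Tnfsf9, Tnfrsf4, Tnfrsf9 and Tnfrsf18.

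Counted over the 10 genes, D2C7-IT tumours of day 0 were higher than vehicle in 10 of 10, against 48.7% of all genes tested. In 6 of the 10 the groups did not overlap, against 11% of all genes, and 4 of 10 had an unadjusted p under 0.05, against 3.61%. The median log2 fold change of the 10 was 1.43, and that of all genes tested was -0.01. edgeR called none of the 10 at an adjusted p under 0.05, where 0.0808% of all genes were called, while DESeq2 called Icosl (adjusted p = 0.0068) and Tnfsf18 (adjusted p = 0.025), where it called 0.595% of all genes. For the combination against vehicle, 9 of 10 were higher, against 53.8% of all genes, and 3 of 10 had an unadjusted p under 0.05, against 1.86%. Tnfrsf18 was the single gene without overlap, against 5.45% of all genes, and the median was 0.95. Without D2C7-IT + αCD40 day 0 replicate 2, none of the 10 had an unadjusted p under 0.05 and the median was 0.56. edgeR called none of the 10 for the combination, where the share of all genes called was 0%, and DESeq2 called none of the 10.

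The differences of αCD40 alone from vehicle on day 0 were not resolved by these tests. The 10 genes were each higher, against 50.5% of all genes tested, with log2 fold changes of 0.11 to 2.59 and a median of 0.39. None had an unadjusted p under 0.05, and neither edgeR nor DESeq2 called any. Without αCD40 day 0 replicate 3, the median was 0.09 and 6 of 10 were higher. The treated groups share the same 3 vehicle tumours, so their fold changes against vehicle are not independent of each other.

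Set directly against each other on day 0, the combination was not above D2C7-IT alone. The combination was lower in 8 of the 10 genes and higher in 2, where 53.2% of all genes were higher, with a median log2 fold change of -0.50, and its Tnfsf9 and Tnfrsf9 values did not overlap those of D2C7-IT, against 8.53% of all genes with lower values that did not overlap. Without replicate 1 or 2 of the combination that median was -0.17 or -1.02. Against αCD40 alone, the combination was higher in 8 of 10 (3 of 10 without its replicate 2), against 54.7% of all genes. Icosl was the single one with an unadjusted p under 0.05, against 0.516% of all genes that were higher by that measure, and had a log2 fold change of 0.94 ± 0.44 (SE; edgeR unadjusted p = 0.0485, adjusted p = 1). With both D2C7-IT arms set against both arms without it, Icosl had a log2 fold change of 1.44 ± 0.32 (edgeR unadjusted p = 0.000247, adjusted p = 0.16) and all 10 genes were higher, against 50.2% of all genes, with a median of 0.92. edgeR called none of the 10 (0.0314% of all genes), with 4 at an unadjusted p under 0.05, against 2.68% of all genes. DESeq2 called Icosl (adjusted p = 0.0036) and Tnfsf18 (adjusted p = 0.010), where it called 0.416% of all genes. With both αCD40 arms set against both arms without αCD40, 6 of 10 genes were higher, against 51.9% of all genes. The median there was 0.04, and none of the 10 had an unadjusted p under 0.05 by edgeR. The test of non-additivity, the combination set against the sum of the single treatments, was negative for each of the 10, while it was positive for 52.6% of all genes, with a median of -0.95 and no unadjusted p under 0.05.

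Some myeloid markers and the endothelial markers also differed on day 0, and their part in the results on ligands was not tested. Of 9 neutrophil markers 7 were tested, each was higher in D2C7-IT than in vehicle tumours, with a median log2 fold change of 2.41. Their list summed to 41.4 to 46.1 CPM in D2C7-IT tumours and 13.4 to 33.9 CPM in vehicle tumours, where Ly6g, a marker that defines neutrophils, was at 0. Of 9 monocyte and macrophage markers 8 were higher. Their sums overlapped, at 198 to 434 CPM in D2C7-IT tumours and 56.9 to 252 CPM in vehicle tumours. Dendritic cell markers also overlapped, at 49.5 to 54.0 CPM in D2C7-IT tumours and 39.0 to 56.1 CPM in vehicle tumours. Microglia markers did so too, at 542 to 751 CPM in D2C7-IT tumours and 416 to 793 CPM in vehicle tumours. Ptprc was at 46.4 to 51.8 CPM in D2C7-IT tumours and 7.32 to 42.2 CPM in vehicle tumours. Egfr overlapped, at 27.4 to 46.7 CPM (median 36.0) in D2C7-IT tumours and 16.1 to 50.8 CPM (median 18.5) in vehicle tumours. Cell cycle sums overlapped too, at 161 to 193 CPM (median 179) in D2C7-IT tumours and 62.5 to 245 CPM (median 88.6) in vehicle tumours. What Egfr and cell cycle levels contribute was not tested. The sum of Cd3d, Cd3e and Cd3g was 1.66 to 4.10 CPM in D2C7-IT tumours and 0.749 to 3.79 CPM in vehicle tumours, so these T cell markers overlapped. The summed level of 10 endothelial genes was 346 to 430 CPM in combination, 362 to 408 CPM in D2C7-IT, 376 to 459 CPM in αCD40 and 236 to 284 CPM in vehicle tumours. Each treated group thus lay above vehicle without overlap in the endothelial sum, and the medians of the log2 fold change over these 10 genes were 0.52 in combination, 0.45 in D2C7-IT and 0.57 in αCD40 tumours.

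**Figure D2:**
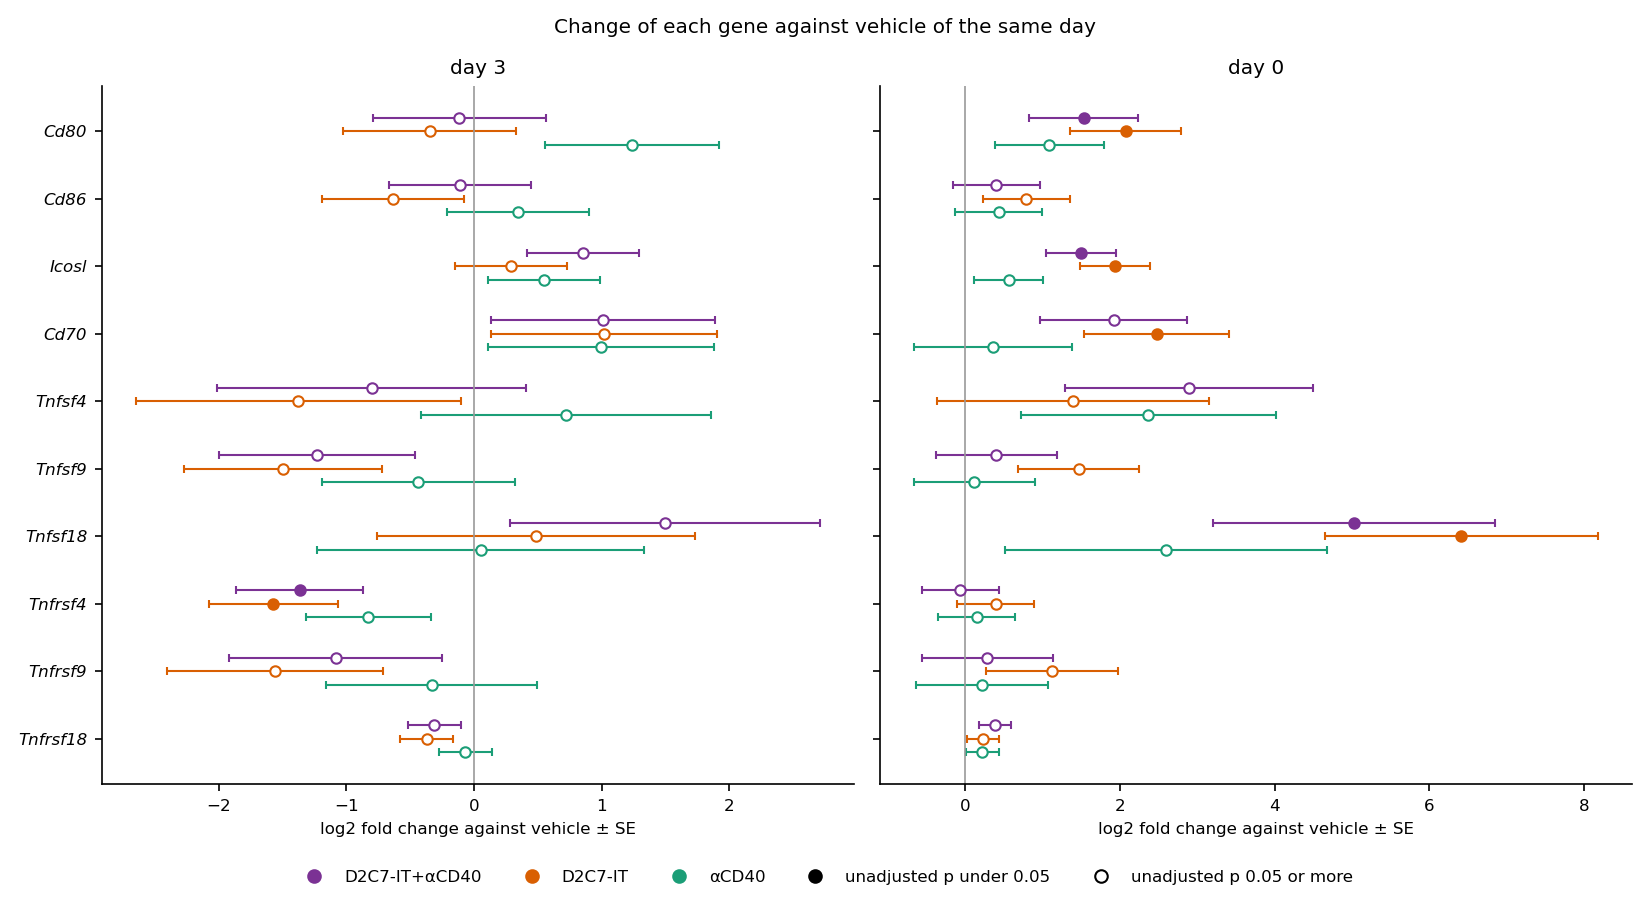
Log2 fold change of each gene against vehicle of the same day, with its standard error from edgeR, for the 3 treatments on day 3 (left) and day 0 (right). Filled points have an unadjusted p under 0.05; on day 0 these are Cd80, Icosl, Cd70 and Tnfsf18 for D2C7-IT and Cd80, Icosl and Tnfsf18 for the combination, and on day 3 Tnfrsf4 alone, lower than vehicle in both D2C7-IT arms.

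The genes around these pathways were counted by list on day 0. Of 15 TRAF and NF-κB genes, 15 were higher in D2C7-IT than in vehicle tumours, against 48.7% of all genes tested. Among them 8 had an unadjusted p under 0.05, against 3.61% of all genes that were higher by that measure. The median log2 fold change was 1.20. Tnfaip3, an NF-κB target that switches the pathway off, averaged 89.8 ± 32.6 CPM in D2C7-IT tumours (SD, n = 3), and its log2 fold change was 3.16 ± 0.73 (SE). Birc3 (2.34 ± 0.77), an inhibitor of cell death bound to TRAF2, Traf1 (2.10 ± 0.76), an adaptor of TNF receptors, and Nfkbia (1.44 ± 0.43), the NF-κB inhibitor IκBα, were the next by p. Of 20 further costimulatory and coinhibitory genes, 16 were higher and 4 of them had an unadjusted p under 0.05, against the same shares of all genes. Icam1, the adhesion ligand of LFA-1, had the smallest p of that list (3.84 ± 0.84; edgeR adjusted p = 0.11), followed by Tnfsf8 (3.78 ± 0.99), the ligand of CD30, Slamf1 (1.63 ± 0.54) and Tnfsf14 (2.43 ± 1.05), which encodes LIGHT. No gene of these 2 lists was called by edgeR.

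Of 10 tested genes of dendritic cell licensing, 7 were higher in D2C7-IT than in vehicle tumours on day 0, against 48.7% of all genes. Those with an unadjusted p under 0.05 were 4 of the 10, against 3.61% of all genes, and the median log2 fold change was 0.50. Il12b, a subunit of interleukin 12, had a log2 fold change of 4.99 ± 1.35 (SE), Relb, an NF-κB subunit, of 1.78 ± 0.67, Ccl22, a chemokine of mature dendritic cells, of 1.61 ± 0.71, and Cd83, a maturation marker, of 0.83 ± 0.35. In combination tumours 7 of the 10 were higher, against 53.8% of all genes, with a median of 0.43. The 2 with an unadjusted p under 0.05, against 1.86% of all genes, were Il12b (4.54 ± 1.33) and Ccl22 (3.27 ± 0.74). In αCD40 tumours 7 of the 10 were higher as well, against 50.5% of all genes, with a median of 0.27. Here the 2 with an unadjusted p under 0.05, against 0.929% of all genes, were Ccl22 (3.81 ± 0.75, edgeR adjusted p = 0.21) and Il12b (2.94 ± 1.28). The summed level of the list was lower there, at 378 to 395 CPM in αCD40 tumours and 414 to 495 CPM in vehicle tumours. Such a sum follows the most abundant genes of the list, and which genes set it was not separated. None of these adjusted p-values was under 0.05.

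Cd40, the receptor that αCD40 binds, was also higher in the D2C7-IT arms on day 0. It was at 1.93, 11.4 and 4.43 CPM in D2C7-IT + αCD40 tumours and at 6.76, 11.2 and 8.72 CPM in D2C7-IT tumours. It was at 1.60, 1.28 and 4.81 CPM in αCD40 tumours and at 1.54, 1.19 and 0.970 CPM in vehicle tumours. The log2 fold change against vehicle was 2.84 ± 0.89 (SE) for D2C7-IT, with an edgeR unadjusted p of 0.005 and an adjusted p of 0.56, and 2.25 ± 0.87 for the combination. The receptors of the B7 ligands and of CD70 were low on day 0: Cd28 averaged 0.342 ± 0.185 CPM in combination, 0.717 ± 0.269 CPM in D2C7-IT, 0.638 ± 0.450 CPM in αCD40 and 0.538 ± 0.316 CPM in vehicle tumours (SD, n = 3 each). Icos averaged 0.482 ± 0.386 CPM in combination, 0.890 ± 0.306 CPM in D2C7-IT, 1.28 ± 1.19 CPM in αCD40 and 0.974 ± 0.819 CPM in vehicle tumours. These receptors did not set the groups apart, and Cd40lg, the gene of the CD40 ligand, did not pass the filter, with 3 to 9 counts per group of day 0.

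On day 3 the order of the groups was different, and values within the αCD40 and vehicle groups were spread widely. Icosl was at 20.1, 20.9 and 24.4 CPM in D2C7-IT + αCD40 tumours and at 13.5, 17.9 and 12.9 CPM in D2C7-IT tumours. It was at 24.1, 18.8 and 9.98 CPM in αCD40 tumours and at 7.46, 15.6 and 13.1 CPM in vehicle tumours. The combination tumours lay above the D2C7-IT and the vehicle tumours without overlap. Cd86 was at 10.2, 15.0 and 14.2 CPM in combination tumours and at 9.47, 8.50 and 9.51 CPM in D2C7-IT tumours. It was at 36.8, 10.3 and 7.27 CPM in αCD40 tumours and at 5.64, 19.4 and 17.7 CPM in vehicle tumours, with the high value of αCD40 and both high values of vehicle in the Egfr-high libraries. Cd80 was at 1.46, 2.15 and 1.60 CPM in combination tumours, 1.86, 1.18 and 1.39 CPM in D2C7-IT tumours, 8.95, 2.34 and 2.06 CPM in αCD40 tumours and 0.515, 2.73 and 2.39 CPM in vehicle tumours.

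Tnfsf9 was at 1.19, 2.69 and 2.21 CPM in combination tumours and at 2.63, 1.18 and 1.27 CPM in D2C7-IT tumours on day 3. It was at 8.44, 1.15 and 0.990 CPM in αCD40 tumours and at 1.03, 6.00 and 7.30 CPM in vehicle tumours. The 3 values over 5 CPM were those of the Egfr-high libraries. Cd70 was at 0.122, 0.395 and 0.309 CPM in combination, 0.246, 0.370 and 0.222 CPM in D2C7-IT, 0.540, 0.148 and 0.130 CPM in αCD40, and 0.136, 0.140 and 0.128 CPM in vehicle tumours. D2C7-IT tumours lay above vehicle in Cd70 without overlap. Tnfsf18 was at 0.0487, 0.789 and 0.798 CPM in combination, 0.329, 0.168 and 0.302 CPM in D2C7-IT, 0.483, 0.0888 and 0.0261 CPM in αCD40, and 0.0814, 0.257 and 0.231 CPM in vehicle tumours. Tnfsf4 was at 0.0487, 0.247 and 0.0515 CPM in combination, 0.164, 0 and 0.0604 CPM in D2C7-IT, 0.824, 0.118 and 0.0782 CPM in αCD40, and 0, 0.350 and 0.257 CPM in vehicle tumours.

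Among the receptors, Tnfrsf4 was at 1.31, 2.66 and 2.03 CPM in D2C7-IT + αCD40 tumours and at 1.51, 1.95 and 1.75 CPM in D2C7-IT tumours on day 3. It was at 4.97, 2.22 and 1.54 CPM in αCD40 tumours and at 1.57, 7.73 and 6.19 CPM in vehicle tumours. The values of 4.97 CPM and above were those of the 3 Egfr-high libraries. The log2 fold change of Tnfrsf4 against vehicle was -1.37 ± 0.50 (SE) for the combination (edgeR unadjusted p = 0.0133, adjusted p = 0.12) and -1.57 ± 0.50 for D2C7-IT (unadjusted p = 0.00567, adjusted p = 0.085). With both D2C7-IT arms set against both arms without it, Tnfrsf4 fell by 1.05 ± 0.35 on the log2 scale with an edgeR adjusted p of 0.045, the single call among the 10 genes. In that comparison 18.2% of all genes were called. Without the 3 Egfr-high libraries the log2 fold change of Tnfrsf4 in it was 0.13, so neither the call nor its direction was kept. It was also lost without any one of the 6 D2C7-IT-treated tumours, αCD40 replicate 1 or vehicle replicate 2 or 3 of that day, while without vehicle replicate 1 edgeR called Tnfsf9, Tnfrsf4 and Tnfrsf9, and 39.5% of all genes. DESeq2 called Tnfrsf4 and 20.7% of all genes.

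Tnfrsf9 was at 1.41, 5.38 and 2.60 CPM in combination tumours and at 3.61, 1.65 and 1.49 CPM in D2C7-IT tumours on day 3. It was at 12.7, 1.75 and 1.33 CPM in αCD40 tumours and at 0.543, 9.87 and 9.48 CPM in vehicle tumours. The vehicle tumours thus held both the lowest and 2 of the 3 highest values of that day. Tnfrsf18 was at 6.81, 5.08 and 5.64 CPM in combination, 5.94, 4.60 and 6.29 CPM in D2C7-IT, 8.72, 6.72 and 5.32 CPM in αCD40, and 5.83, 7.77 and 8.17 CPM in vehicle tumours.

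Over the 10 genes on day 3, the combination was higher than vehicle in 3 and lower in 7, where 50.9% of all genes were higher, with a median log2 fold change of -0.21. Icosl was the single gene that did not overlap and was higher, against 8.06% of all genes tested, and Tnfrsf4 the single one with an unadjusted p under 0.05, where 16.9% of all genes were lower by that measure. edgeR called none of the 10 (0.0404% of all genes) and DESeq2 called none. D2C7-IT against vehicle was higher in 3 of 10, against 51.5% of all genes, with a median of -0.50. Tnfrsf4 was the single one with an unadjusted p under 0.05, where 18.3% of all genes were lower by that measure, and Cd70 was the single gene higher without overlap, against 7.43% of all genes. edgeR called none of the 10 there (0% of all genes), and DESeq2 called Tnfrsf4 (adjusted p = 0.024) and 12.8% of all genes. For αCD40 6 of 10 were higher than vehicle, against 52.8% of all genes, with a median of 0.20 and no unadjusted p under 0.05, and neither tool called any. Without αCD40 day 3 replicate 1 that median was -0.87. Without vehicle day 3 replicate 1, edgeR called Tnfrsf4 in the combination, with 30.1% of all genes, and Tnfsf9, Tnfrsf4 and Tnfrsf9 in D2C7-IT, with 35.7% of all genes. Each was lower than in the 2 Egfr-high vehicle tumours that remained. Set together, the αCD40 arms were above the arms without αCD40 in 7 of 10 genes, against 48.1% of all genes (median 0.46). The combination was higher than αCD40 alone in 3 of 10, against 46.2% of all genes, with a median of -0.50. Non-additivity was positive for 7 of 10, against 48.1% of all genes, with a median of 0.15. edgeR gave none of the 10 an unadjusted p under 0.05 there, and the αCD40 and vehicle groups hold the Egfr-high libraries.

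Without the 3 Egfr-high libraries the day 3 differences from vehicle took the other sign for 7 of the 10 genes in the combination. Vehicle was then left with 1 tumour, which the fit assumes to vary like the other groups. The combination was higher than that tumour in 10 of 10 genes, with a median log2 fold change of 1.41, and with 1.58 for Icosl and 2.55 for Tnfrsf9. D2C7-IT was higher in 9 of 10, with a median of 1.01, and αCD40 in 9 of 10, with a median of 0.47. The share of all genes higher than that tumour was not taken, so these counts stand without a background. No adjusted p of the combination was under 0.71 by edgeR.

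**Figure D3:**
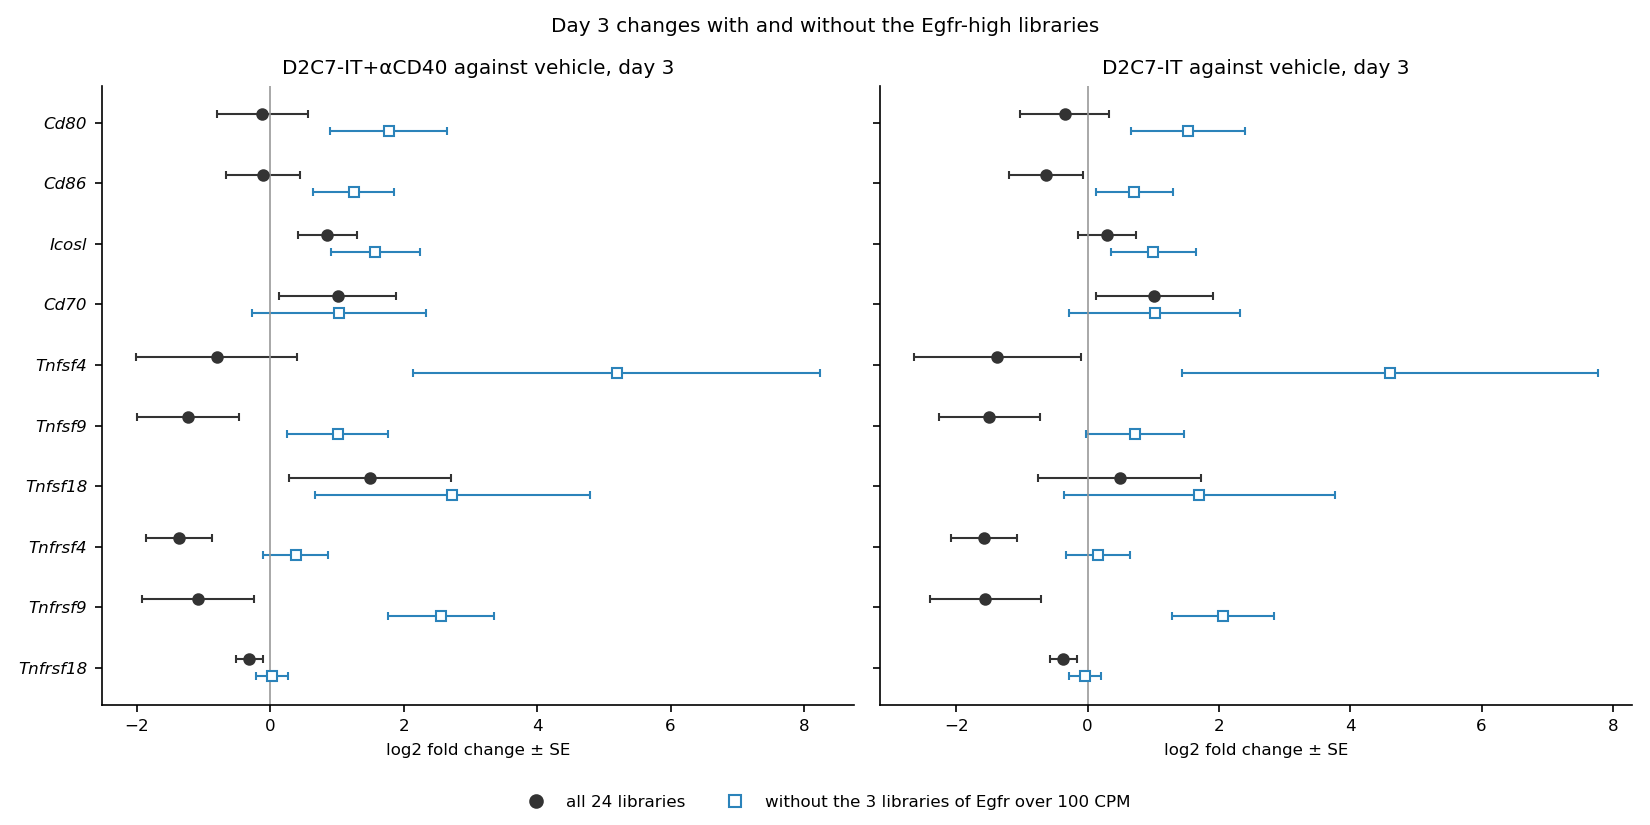
Log2 fold change against vehicle on day 3, with its standard error, for the combination (left) and D2C7-IT (right), from all 24 libraries (black circles) and without the 3 libraries of Egfr over 100 CPM (blue squares), where vehicle has 1 tumour, with no count of Tnfsf4. Tnfrsf4 in the combination was at -1.37 with all libraries and at 0.38 without the 3.

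The combination and D2C7-IT groups held no Egfr-high library, so the difference between their means does not use those libraries, although all 24 libraries set the spread in the fit. The combination was higher than D2C7-IT in 9 of 10 genes, against 47.6% of all genes, with a median log2 fold change of 0.37 (6 of 10 and 0.03 without D2C7-IT + αCD40 day 3 replicate 2). Fitted without the 3 Egfr-high libraries, 10 of 10 were higher with a median of 0.39 and a smallest edgeR adjusted p of 0.868. Cd86 and Icosl were higher without overlap, against 6.27% of all genes, and no gene of the 10 had an unadjusted p under 0.05 or was called by edgeR or DESeq2. Cd40 was at 6.06, 11.2 and 7.70 CPM in combination tumours and at 1.92, 1.28 and 1.19 CPM in D2C7-IT tumours, with a log2 fold change of 2.51 ± 0.88 (SE; edgeR unadjusted p = 0.010, adjusted p = 1). Ccl22 (3.85 ± 0.74), Il12b (4.61 ± 1.28) and the coinhibitory ligand gene Cd274 (2.36 ± 0.82), which encodes PD-L1, were higher as well, each with an adjusted p of 1. The sum of Cd3d, Cd3e and Cd3g was 4.89 to 9.89 CPM in combination tumours and 2.03 to 3.30 CPM in D2C7-IT tumours, without overlap. Neither did the groups overlap in natural killer cell markers, which summed to 4.77 to 7.37 CPM in combination tumours and 0.493 to 2.96 CPM in D2C7-IT tumours, nor in B cell markers, at 4.43 to 11.9 CPM in combination tumours and 2.30 to 3.97 CPM in D2C7-IT tumours. Ptprc was at 32.8 to 47.0 CPM in combination tumours and 24.3 to 32.2 CPM in D2C7-IT tumours. Endothelial markers summed to 357 to 440 CPM in combination tumours and 288 to 345 CPM in D2C7-IT tumours. The whole list of 15 T cell genes overlapped, at 564 to 600 CPM in combination tumours and 475 to 672 CPM in D2C7-IT tumours. Without Thy1 that list did not overlap, at 40.2 to 66.0 CPM and 25.0 to 36.6 CPM. Dendritic cell markers overlapped, at 63.6 to 67.7 CPM in combination tumours and 52.8 to 72.3 CPM in D2C7-IT tumours. So did the sums for monocytes and macrophages, microglia, regulatory T cells and neutrophils. The part of these markers in the differences was not tested.

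The 3 Egfr-high libraries lay above all 21 others in Cd86, Tnfsf9, Tnfrsf4, Tnfrsf9 and Tnfrsf18, which is 5 of the 10 genes, where 26.1% of all genes tested did so. Tnfrsf9 was at 9.48 to 12.7 CPM in the 3 and at most 5.38 CPM in the others, and Tnfrsf4 was at 4.97 to 7.73 CPM in the 3 and at most 2.66 CPM in the others. Icosl was not among them, at 13.1 to 24.1 CPM in the 3 and 5.29 to 36.7 CPM in the others. The single highest tumour of the study was αCD40 day 3 replicate 1 for Cd80, Cd86, Tnfsf4, Tnfsf9, Tnfrsf9 and Tnfrsf18. Natural killer cell markers summed to 25.2 to 50.5 CPM in the 3 libraries and 0.441 to 12.7 CPM in the others. What the Egfr level and these markers contribute to the gene levels was not tested.

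**Figure D4:**
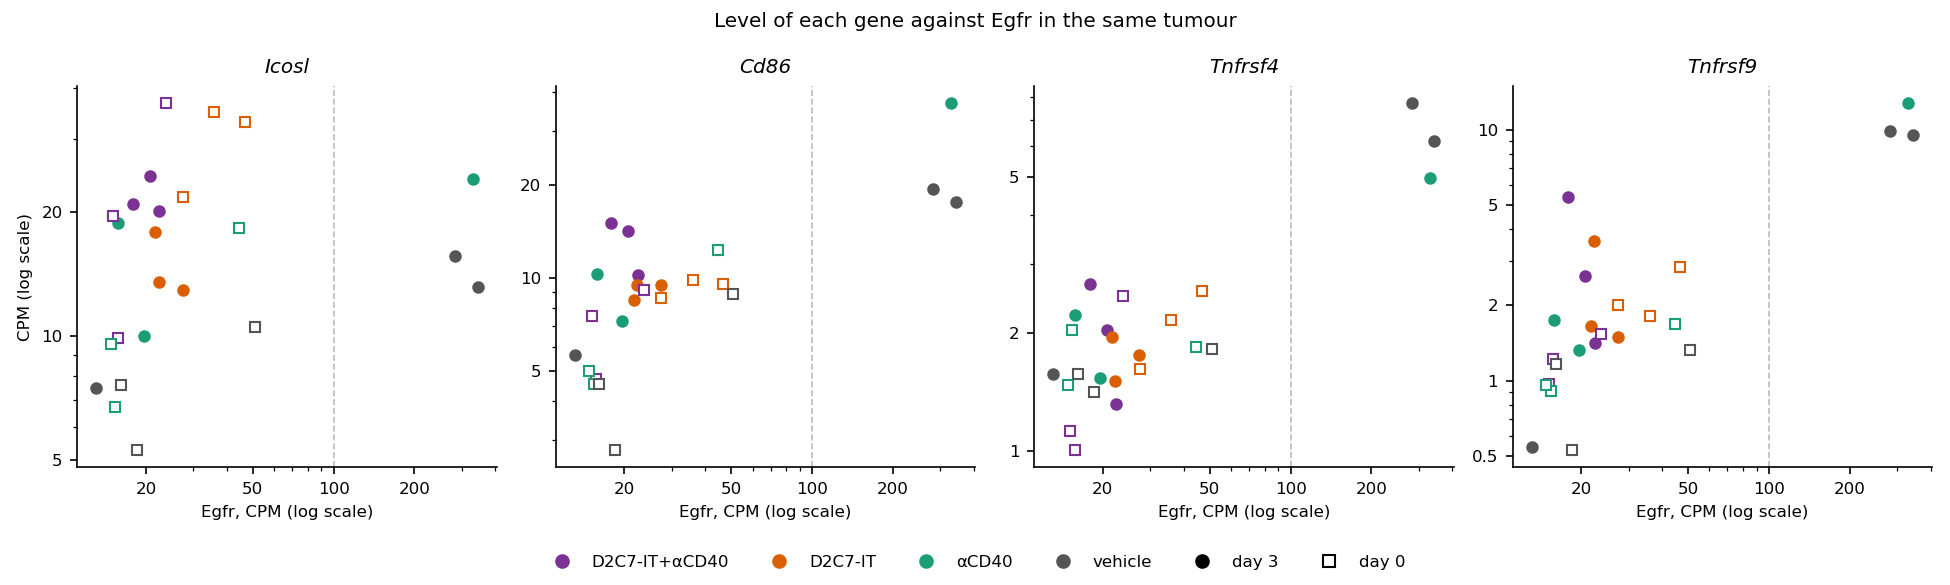
Level of Icosl, Cd86, Tnfrsf4 and Tnfrsf9 against that of Egfr in the same tumour, both in CPM on log scales; filled circles are day 3, open squares day 0, colours are treatments and the dashed line is 100 CPM of Egfr. The 3 tumours right of the line were the highest in Cd86, Tnfrsf4 and Tnfrsf9 and within the range of the others in Icosl.

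Between the days, levels differed within the vehicle group itself. Vehicle tumours of day 3 were higher than those of day 0 in 10 of 10 genes, against 50.6% of all genes, and 6 had an unadjusted p under 0.05, against 22% of all genes. The log2 fold changes of these 6 were 1.60 ± 0.71 (SE) for Cd80, 1.39 ± 0.57 for Cd86, 2.37 ± 0.80 for Tnfsf9, 1.68 ± 0.50 for Tnfrsf4, 2.70 ± 0.89 for Tnfrsf9 and 0.51 ± 0.21 for Tnfrsf18. edgeR called none (0% of all genes; smallest adjusted p of the 10 = 0.108), and DESeq2 called Tnfsf9, Tnfrsf4 and Tnfrsf9, with 12% of all genes. Without vehicle day 3 replicate 1, edgeR called 7 of the 10, and 41.1% of all genes. Without the 3 Egfr-high libraries, which left 1 vehicle tumour of day 3, the log2 fold change was -0.28 for Cd80, -0.04 for Tnfrsf4 and -0.92 for Tnfrsf9. αCD40 tumours of day 3 were likewise higher than those of day 0 in 10 of 10, against 54% of all genes, with 4 at an unadjusted p under 0.05, against 9.52% of all genes, and none called by edgeR (0.0583% of all genes). Without αCD40 day 3 replicate 1, 8 of 10 were higher, the median log2 fold change was 0.19 and none had an unadjusted p under 0.05.

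In the D2C7-IT arms, day 3 was not higher throughout. D2C7-IT tumours of day 3 were lower than those of day 0 in 8 of 10 genes and higher in 2, where 51% of all genes were higher, and Cd80 and Icosl did not overlap between the days, against 6.36% of all genes with lower values. The log2 fold change of Icosl was -1.02 ± 0.44 (SE; edgeR unadjusted p = 0.033, adjusted p = 1), and that of Cd40 was -2.60 ± 0.88. In combination tumours Cd86 was higher on day 3 without overlap, at 13.2 ± 2.56 CPM on day 3 and 7.14 ± 2.25 CPM on day 0 (SD, n = 3 each), against 7.07% of all genes. Icosl in combination tumours averaged 21.8 ± 2.28 CPM on day 3 and 22.0 ± 13.6 CPM on day 0, a difference within the spread between tumours.

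The change of the D2C7-IT effect between days was tested as an interaction. The difference, day 3 minus day 0, was negative in 10 of 10 genes and positive in 49.9% of all genes, and 6 had an unadjusted p under 0.05, against 12.2% of all genes that were lower by that measure. The difference for Tnfsf18 rests on 1 count in vehicle tumours of day 0. The others, on the log2 scale, were -2.96 ± 1.10 (SE) for Tnfsf9, -2.68 ± 1.20 for Tnfrsf9, -2.42 ± 0.98 for Cd80, -1.97 ± 0.70 for Tnfrsf4 and -1.65 ± 0.63 for Icosl, each with an edgeR adjusted p of 0.28. Without vehicle day 3 replicate 1, edgeR called Cd80, Tnfsf9, Tnfrsf4 and Tnfrsf9, with 16.1% of all genes. Removing the 3 Egfr-high libraries instead leaves 1 vehicle tumour of day 3. Without the 3 Egfr-high libraries the difference was -0.74 for Tnfsf9, 0.94 for Tnfrsf9, -0.55 for Cd80, -0.24 for Tnfrsf4 and -0.94 for Icosl, and no gene of the 10 had an unadjusted p under 0.05. For the combination the difference was negative in 10 of 10 and positive in 48.4% of all genes, with Tnfrsf18 (-0.70 ± 0.29) the single gene with an unadjusted p under 0.05, where 5.84% of all genes were lower by that measure, and an adjusted p of 0.55.

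Across the partner receptors on day 3, the D2C7-IT arms set together were below the arms without it in 5 of 5 tested genes. Of all genes, 50.2% were higher in that comparison. There edgeR called Icos (log2 fold change -2.28 ± 0.69, SE; adjusted p = 0.0315) and Cd27 (-1.63 ± 0.50; adjusted p = 0.0333), where 18.2% of all genes were called. The arms without D2C7-IT hold the 3 Egfr-high libraries, which were above all others in Icos, Cd27, Cd28 and Ctla4. Without them the log2 fold change was 0.47 ± 0.71 for Icos and 0.42 ± 0.44 for Cd27, so neither the calls nor their direction were kept. Both calls were also lost without any one of the 3 combination tumours, D2C7-IT replicate 1 or 2, αCD40 replicate 1 or vehicle replicate 2 or 3 of that day, and with only the groups compared in the fit (edgeR adjusted p = 0.147 for Icos and 0.155 for Cd27). Cd40 was at 35.3, 5.21 and 4.46 CPM in αCD40 tumours and 0.922, 12.3 and 10.7 CPM in vehicle tumours on that day. D2C7-IT alone was below vehicle in Cd40 (log2 fold change -2.45 ± 0.87, SE), Cd27 (-1.88 ± 0.71), Icos (-2.56 ± 0.98) and Ctla4 (-2.49 ± 1.18), with no call by edgeR in that comparison. Without the Egfr-high libraries these 4 had the other sign, at 0.67 for Cd40, 1.42 for Cd27, 2.12 for Icos and 3.03 for Ctla4. Vehicle was then 1 tumour, with 0.0814 CPM of Ctla4. Icos averaged 0.823 ± 0.239 CPM in D2C7-IT tumours and 4.88 ± 4.28 CPM in vehicle tumours, and Ctla4 0.680 ± 0.176 CPM in D2C7-IT tumours and 3.83 ± 3.45 CPM in vehicle tumours (SD, n = 3 each). Of the vehicle tumours, 1 was low, with 0.190 CPM of Icos, and the 2 Egfr-high ones were high.

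In αCD40 tumours of day 3, B cell markers were above vehicle, while none of the 10 costimulatory genes had an unadjusted p under 0.05 in that comparison. All 7 B cell genes were higher than in vehicle with an unadjusted p under 0.05, against 1.52% of all genes. Their median log2 fold change was 3.91, though no adjusted p was under 0.097 by edgeR. They summed to 19.5 to 276 CPM in αCD40 tumours and 1.44 to 16.5 CPM in vehicle tumours. The highest sum was that of the Egfr-high αCD40 replicate 1, and the next αCD40 tumour was at 85.6 CPM. B cells can carry CD80, CD86 and ICOSL, and their part in the levels of those genes was not tested. Among listed genes, Ccl22 had a log2 fold change of 2.93 ± 0.71 (SE; edgeR adjusted p = 0.46), followed by Slamf1 (1.95 ± 0.52), Havcr1 (2.56 ± 0.87) and Slamf6 (1.87 ± 0.85).

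Over the 21 libraries without high Egfr, the genes other than Tnfrsf18 moved together. All 36 pairs among those 9 had a positive Spearman correlation, between 0.20 and 0.85 with a median of 0.69, while the pairs with Tnfrsf18 lay between -0.39 and 0.20. Tnfrsf18, part of whose exon bases are shared with Gm16008, ranged from 4.34 to 8.72 CPM over all tumours. The 3 genes most like each of the 7 genes with a mean of at least 1 CPM were named by the same correlation over those 21 libraries. They were Gpr132 (0.94), Clec4e (0.93) and Samsn1 (0.92) for Cd80, Itgb2 (0.95), Rest (0.95) and Cst7 (0.94) for Cd86, and Gbp5, Gpr84 and Lrmda (0.95 each) for Icosl. For Tnfsf9 they were Odc1 (0.95), Stat3 (0.94) and Tgif1 (0.94), and for Tnfrsf4 Tank (0.86), Foxn2 (0.85) and Slc41a1 (0.83). For Tnfrsf9 they were Csf2rb (0.97), Nfkb2 (0.95) and Zfp984 (0.95), and for Tnfrsf18 Pgm3 (0.74), Zfp318 (0.73) and Cdh2 (0.73). The libraries share groups, depth and tissue makeup, so these correlations are descriptions of the same 21 tumours.

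Ordered by group mean, each gene had a different sequence of groups. D2C7-IT of day 0 was the highest group for Icosl, Cd70 and Tnfsf18, αCD40 of day 3 for Cd80, Cd86 and Tnfsf4, and vehicle of day 3 for Tnfsf9, Tnfrsf4, Tnfrsf9 and Tnfrsf18. Vehicle of day 0 was the lowest group for each of the genes except Tnfrsf4, whose lowest was the combination of day 0. Of the 7 neighbouring pairs in each order, the ranges of the tumours overlapped in all 7 for 8 of the genes and in 6 for Cd86 and Tnfrsf9.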

How the data were processed

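Counts are raw reads per gene as the authors deposited them. The submitters' processing notes name the build GRCm38 and the tools featureCounts, Subread 1.5.2, STAR 2.5.2b, Trimmomatic 0.36 and bcl2fastq 2.17, without their roles; neither the gene annotation nor any strand setting is stated there. The tables hold 36 columns for 24 tumours; 12 columns repeat others and 0 of them differed. Of 49315 gene IDs, 48970 had a symbol. Genes were filtered with filterByExpr, scaled by TMM and fitted with edgeR 4.0.16 (R 4.3.3; glmQLFit, robust), with 1 mean per group and 16 residual degrees of freedom, in 23 comparisons. A call is an adjusted p under 0.05 over 22280 genes, and SE is the fold change divided by the root of F. DESeq2 1.42.0 was an alternative, beside other size factors, no filter, a replicate block, fewer groups, and leaving out libraries. In simulated counts for D2C7-IT + αCD40 against vehicle on day 0 (21778 genes), edgeR recovered 30% of 2-fold and 80% of 4-fold changes, with 7 false calls. The changed genes all had a mean over 1 CPM, so these shares do not cover Cd70, Tnfsf18 and Tnfsf4. In the measured counts of that comparison edgeR called 0 of 22280 genes. Whether the shares hold for the measured tumours was not tested. Total depth was 24697576 to 48119840 counts per library. Each p-value of the main fit sets a difference against the spread between tumours, estimated over all groups of both days with the Egfr-high libraries among them.

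The 10 genes and all lists were chosen with earlier results of these data known. Each of the 10 is given by its level in every tumour, with a fold change where its unadjusted p was under 0.05; of each pathway list, up to 4 genes of smallest p are named.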

Additional observations from a re-analysis of the deposited data

How the results depend on the processing

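edgeR called 1 of the 10 genes in 1 of 23 comparisons, Tnfrsf4 in both D2C7-IT arms against both arms without it on day 3. That count was 0 with no filter (adjusted p = 0.064), with a replicate block (adjusted p = 0.055), with fewer groups in the fit (adjusted p = 0.17) and without the 3 Egfr-high libraries, and 0 to 3 when each library was left out in turn. DESeq2 called 2 genes in D2C7-IT against vehicle on day 0, 2 in both D2C7-IT arms on day 0, 1 in D2C7-IT against vehicle on day 3 and 3 in vehicle of day 3 against day 0.

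Leaving out each library gave 0 to 1 calls in the combination against vehicle on day 3, 0 to 3 in D2C7-IT against vehicle on day 3, 0 to 4 in the difference between days of D2C7-IT and 0 to 7 in vehicle of day 3 against day 0. The highest count of each came without vehicle day 3 replicate 1, which leaves 2 Egfr-high tumours in that group. Among log2 fold changes with an unadjusted p under 0.05, those that took the other sign without the Egfr-high libraries were, on day 3, 0.38 and 0.15 for Tnfrsf4 in the combination and in D2C7-IT, and 0.83 for Tnfsf9 and 0.13 for Tnfrsf4 in both D2C7-IT arms. Likewise, the difference between days was 0.94 for Tnfrsf9 in D2C7-IT, and vehicle of day 3 against day 0 was at -0.28 for Cd80, -0.040 for Tnfrsf4 and -0.92 for Tnfrsf9. The cause was not tested.

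Replicate numbers did not pair the tumours: 29 of 84 same-numbered pairs had a correlation of deviations over 0.1, with a lowest of -0.91. The block changed no other count of calls. Cd70, Tnfsf4 and Tnfsf18 had few counts, so depth limits their fold changes.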
